A study of Oryza sativa with 24 samples.

Results

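The genes described here are 200 rice genes whose level stepped down moderately at each of 3 successive transitions of panicle development, out of 36099 genes in the table. Young panicles of the indica rice IR64 (Oryza sativa) were sequenced as bulk RNA in plants with the class II trehalose phosphate synthase genes tps2, tps3 and tps6 edited, called the mutant here, and in unedited IR64, called wild type. The stages were 5 (formation of pollen mother cells), 6 (their meiosis), 7 (filling of the pollen) and 8 (pollen maturation), with 3 biological replicates labelled per genotype and stage, all grown in the same chamber conditions. The sources do not say whether the mutant plants came from 1 edited line or several.

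Members were chosen from stage means of CPM (a gene's count scaled to a common library total), pooled over both genotypes. Each had a stage 8 mean of at least 5 CPM, and each of the ratios of stage 5 to 6, 6 to 7 and 7 to 8 was at least 1.2 and under 2. Of 16690 genes with that stage 8 mean, 2298 (13.8%) were lower at each later stage and 297 (1.78%) met the step limits, of which the 200 with the highest ratio of stage 5 to stage 8 were taken. Because these values chose the members, every statement below on their decline with stage is a description and carries no test. The rule set no condition on the difference between the genotypes, which was tested. At stage 7 the lone mutant and lone wild-type library both enter the pooled mean that chose the members, so values of the members that rest on those libraries are not independent of the choice. They are given as a description, and nothing is supported with them.

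The young panicle is a mixed organ. It holds the anthers, with the pollen mother cells and the tapetum that nourishes them, together with the anther wall, the ovary and the growing lemma and palea of the spikelet. Across the interval sampled, cell division gives way to expansion and differentiation, the pollen mother cells pass through meiosis, and the microspores become starch-filled pollen. Class II trehalose phosphate synthases carry synthase and phosphatase domains but mostly lack shown catalytic activity, and they are discussed as regulators in trehalose 6-phosphate signalling, which reports sucrose supply. In bulk tissue, fewer cells of a type and less RNA per cell cannot be told apart, so a lower CPM here means a smaller share of the panicle's reads. The files do not pair the identifiers with gene names, and 0 of 36099 identifiers matched the reference table of 39387 genes. The members are therefore described by level and course, with a few identifiers, and not by function, and no sequence is shown for them. The 18 symbols set aside for anther markers and the edited genes could not be looked up either, so tissue and genotype labels were not checked against them.

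Some libraries went against their labels. In 3 cases a mutant and a wild-type column were identical throughout: replicate 3 at stage 6, and replicates 2 and 3 at stage 7. Each such pair is 1 library of unresolved genotype, called shared here. It entered the stage means once and entered no comparison between genotypes. This left 21 distinct libraries, 18 of them with a resolved genotype, and each genotype then had 3 libraries at stages 5 and 8, 2 at stage 6 and 1 at stage 7. Total counts ran from 11398861 to 15860931 in mutant libraries, from 11562157 to 13094089 in wild-type libraries and from 11764929 to 13671337 in the shared libraries. A member had from 21 to 15867 counts in a library, with a median of 638, so counting error was small for most of them.

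The 200 members were well expressed at the start. Their stage 5 means had a median of 99.99 CPM, against 29.9 CPM over the 16690 genes, and ranged from 15.3 to 1234.3 CPM. At stage 8 their median was 27.1 CPM, against 30.8 CPM over those genes. Thus the members as a set passed from above the typical expressed gene to close to it. At stage 5, 100 members reached 100 CPM and 18 reached 500 CPM, while at stage 8 the numbers were 36 and 0. The 20 most abundant members held 39.7% of the members' summed level at stage 5 and 39.3% at stage 8. The rule required a decline of every member within the same step limits, so these close shares are no separate result.

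Together the members took 3.59% ± 0.135 of all counts at stage 5 (SD, n = 6 libraries of both genotypes), 2.66% ± 0.212 at stage 6 (n = 5), 1.54% ± 0.253 at stage 7 (n = 4) and 1.11% ± 0.0422 at stage 8 (n = 6). The 100 most abundant genes of each library took 11.3% to 12.2% of counts at stage 5, 12.1% to 13.4% at stage 6, 12.9% to 14.1% at stage 7 and 11.5% to 13.9% at stage 8. The median gene of the 16690 stayed between 89.6% and 103.1% of its own stage 5 mean in every library. Over the same libraries the median member came down to between 28.2% and 32.7% of its stage 5 mean at stage 8.

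**Figure D1:**
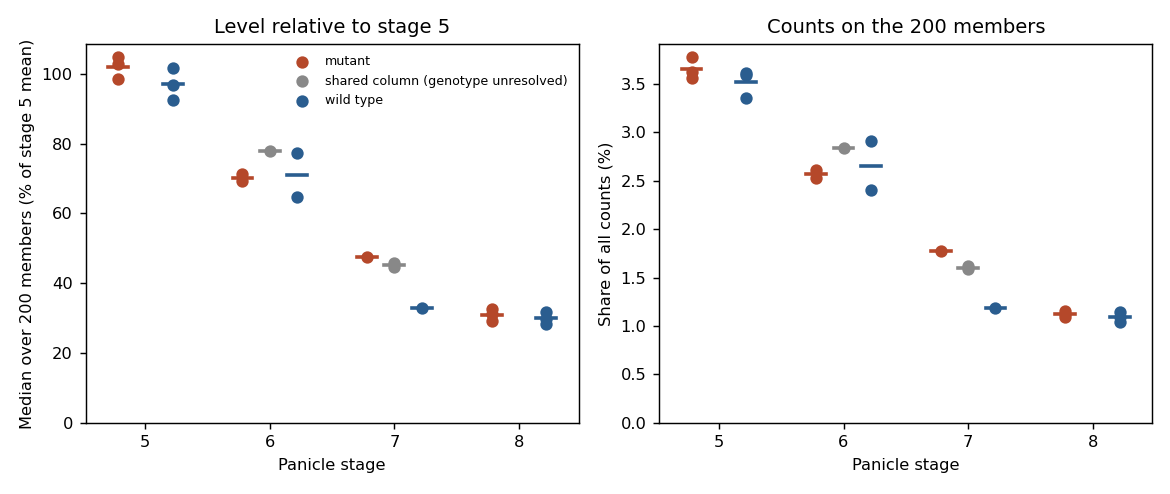
Left, the median over the 200 members of their level as a percentage of their own stage 5 mean, and right, the share of all counts on them, by panicle stage; each point is a library and short lines are group means. Both genotypes start and end close together, and at stage 7 the wild-type library lies at 32.9% of the stage 5 level, against 47.6% in the mutant library.

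The middle transition was the largest of the steps in the pooled means, with a median of 43.8% of a member's log2 decline, against 26.2% for the first and 27.6% for the last. The median ratio was 1.35 from stage 5 to 6, 1.68 from stage 6 to 7 and 1.38 from stage 7 to 8. The transition from meiosis to pollen filling was the largest of the 3 for 134 members, the first was the largest for 30 and the last for 36. Across the 200 members, which share the same libraries, Spearman's rho was -0.10 between the first and second ratio. It was -0.21 between the second and the last and -0.18 between the first and the last. The rule bounded each ratio and kept the genes with the highest product of the 3, and neighbouring ratios share a stage mean. These values therefore describe the chosen set, and no relation between the steps is read from them.

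Ratios of stage 5 to stage 8 ran from 2.57 to 6.01, with 132 members at 3 or more and 31 at 4 or more. Within the 200 genes, Spearman's rho between the ratio and the stage 5 mean was -0.05. The genes were chosen on that ratio, so this value does not show whether decline and abundance are related. Near the limit, the last 2 members had ratios of 2.587 and 2.573, and the next 2 genes, which were left out, had 2.569 and 2.568. A further 49 genes with a ratio at least as high as the last member were left out because 1 step lay between 1.15 and 1.2, and 20 because 1 step lay between 2 and 2.1. Of the members, 60 had a step under 1.25 and 36 had a step of 1.9 or more. Membership therefore has no natural edge.

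At the level of single libraries the ends of the course were well separated and the last transition was not. All 6 stage 5 libraries were above all 6 stage 8 libraries for 199 members (99.5%), against 20.7% of the 16690 genes. Every stage 5 library was above every stage 6 library for 79 members (39.5%, against 8.79%). Every stage 6 library was above every stage 7 library for 140 members (70%, against 17.2%). Every stage 7 library was above every stage 8 library for 27 members (13.5%, against 9.33%). Over the longer intervals, stage 5 lay wholly above stage 7 for 193 members (against 29% of the genes) and stage 6 wholly above stage 8 for 186 (against 15.2%). The rule used these libraries, so nothing is read from the excess over the other genes. The low number at the last transition is described by genotype below.

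**Figure D2:**
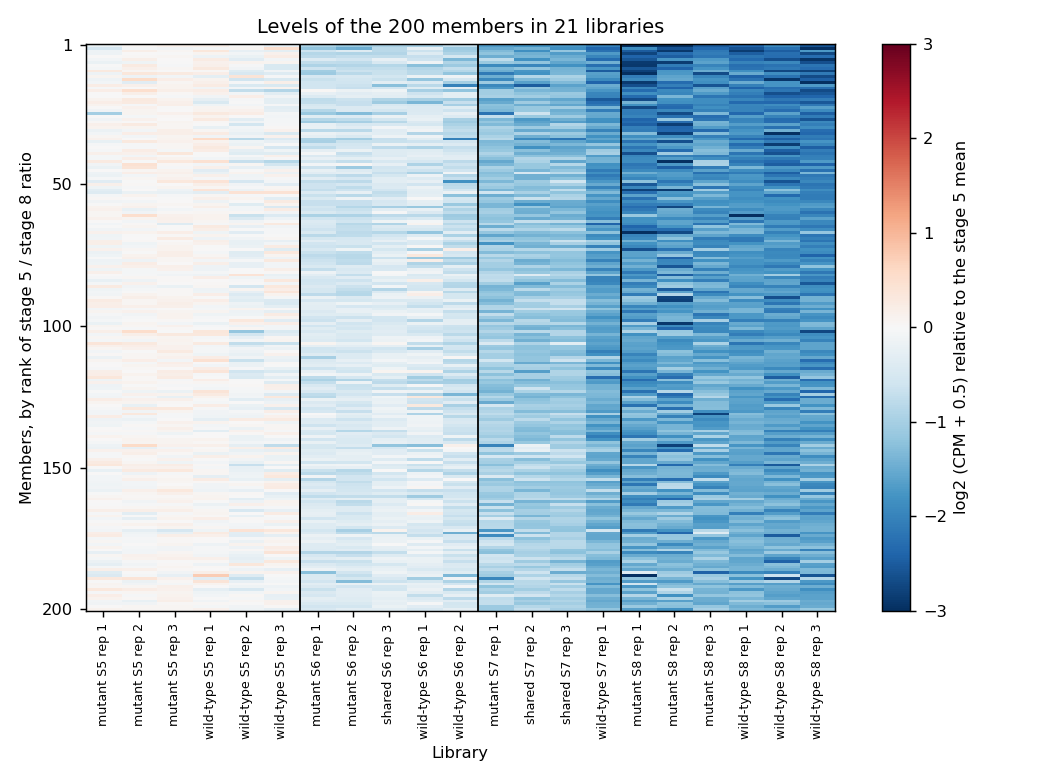
Level of each of the 200 members (rows, ordered by the ratio of stage 5 to stage 8) in each of 21 libraries (columns, grouped by stage), as log2 of CPM plus 0.5 relative to the member's stage 5 mean; blue is lower. The wild-type stage 7 library is as dark as the stage 8 libraries, whereas the mutant and the shared stage 7 libraries are paler.

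The member with the highest ratio was OsIR64_05g0016660. It had 100.4, 120.9 and 128.6 CPM at stage 5, 59.3 and 51.8 CPM at stage 6, 35.0 CPM at stage 7 and 12.2, 13.2 and 19.6 CPM at stage 8 in the mutant. In wild type it had 130.5, 114.5 and 97.7 CPM at stage 5, 57.8 and 69.1 CPM at stage 6, 27.65 CPM at stage 7 and 21.6, 30.0 and 18.7 CPM at stage 8. Within each genotype its stage 5 libraries were above its stage 6 libraries without overlap, and those above the stage 7 library. The stage 8 libraries continued downward in the mutant, while in wild type 1 of 3 was above the stage 7 library.

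The second was OsIR64_02g0021600. The mutant had 57.7, 77.8 and 76.1 CPM at stage 5, 35.8 and 29.0 CPM at stage 6, 27.7 CPM at stage 7 and 22.2, 13.0 and 15.5 CPM at stage 8. Wild type had 78.6, 85.1 and 112.8 CPM at stage 5, 68.6 and 37.9 CPM at stage 6, 15.3 CPM at stage 7 and 12.9, 17.0 and 6.35 CPM at stage 8. The wild-type stage 7 library again lay inside the range of the wild-type stage 8 libraries, and the mutant one lay above every mutant stage 8 library. No function is known here for either identifier.

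The comparison of the genotypes asks whether editing the class II genes altered the level or the timing of this decline. In the mutant the members' median ratios were of similar size, at 1.44, 1.48 and 1.53 for the 3 transitions in order. The median member had made 63.6% of its log2 decline by stage 7. Single members were less even, with the last step the largest for 88, the middle one for 68 and the first for 44. In wild type the median ratios were 1.34, 2.15 and 1.097, and the median member had made 90.5% of its log2 decline by stage 7. In these means the median member stepped down gradually in the mutant, whereas in wild type it went down mainly between stages 6 and 7. From stage 7 to 8 in wild type, 75 members (37.5%, against 20.1% of the 16690 genes) still had a ratio of at least 1.2. The mutant stage 7 library was above the pooled stage 7 mean for 143 members, and the wild-type one for 12. That pooled mean chose the members, so the course within each genotype is a description that is not independent of the choice.

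Over the whole interval the genotypes had close ratios. The median ratio of stage 5 to stage 8 was 3.23 in the mutant and 3.19 in wild type, against 0.954 and 1.03 over the 16690 genes. In mutant means 185 members stepped down at every transition (92.5%, against 11.5% of the genes), and in wild-type means 139 did (69.5%, against 10.7%). The limits of 1.2 and 2 on each step were met by 118 members in the mutant (against 1.76% of the genes), by 30 in wild type (against 0.713%) and by 15 in both. The ratio of stage 6 to 7 was 2 or more for 18 members in the mutant (9%, against 5.65% of the genes) and for 124 in wild type (62%, against 9.91%). From stage 7 to 8 the mean was lower for 191 members in the mutant (95.5%, against 39.5%) and for 140 in wild type (70%, against 39.2%). With CPM scaled by trimmed-mean (TMM) factors, which allow for differences in composition, the wild-type ratios became 1.246, 2.06 and 1.18 and the mutant ratios 1.40, 1.38 and 1.66.

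**Figure D3:**
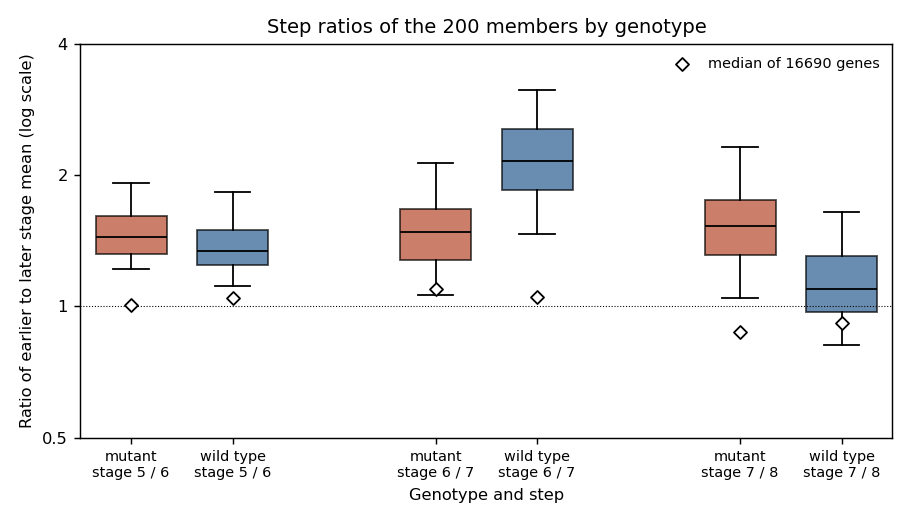
Ratio of the earlier to the later stage mean for the 200 members (log scale), with mutant left of wild type for each transition; boxes are quartiles with the median, whiskers the 5th and 95th percentiles, and diamonds the median of 16690 genes. The mutant medians are 1.44, 1.48 and 1.53, and the wild-type medians 1.34, 2.15 and 1.097.

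This contrast between the genotypes rests on 1 library each at stage 7, and both libraries were used in choosing the members. Without the mutant one, 130 of the 200 still met the rule, and without the wild-type one 184 did. The mutant library had 1.77% of its counts on the members (95% exact binomial interval 1.767% to 1.781%) and the wild-type library 1.18% (1.175% to 1.187%). These intervals cover counting error only, and there is no replicate at that stage within either genotype. At stage 8 the shares were 1.12% ± 0.0301 in the mutant and 1.09% ± 0.0531 in wild type (SD, n = 3 each). The mutant stage 7 library was above every mutant stage 8 library for 153 members (76.5%, against 24.2% of the 16690 genes). The wild-type stage 7 library was above every wild-type stage 8 library for 87 members (43.5%, against 23.2%). It was inside their range for 95 members (47.5%, against 38.6%) and below them for 18 (9%, against 38.2%).

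Set against each other, the mutant stage 7 library was higher than the wild-type one for 178 of 200 members. Among the 16690 genes it was higher for 51.9% of those with a finite ratio, which leaves out genes without a wild-type count. The members' median ratio was 1.47, with a range of 0.420 to 3.22. The mutant library was at least 1.5-fold higher for 93 members (46.5%, against 12.97% of those genes) and at least 1.5-fold lower for 4 (2%, against 15.2%). The median ratio over those genes was 1.02. The 97 genes that met the step limits but ranked below the first 200 had a median ratio of 1.28. The 175 genes that rose gradually by the mirrored rule had a median ratio of 0.743. Whether the difference at stage 7 sets the members apart from other genes that change with stage was not tested. The 2 shared stage 7 libraries had 1.58% (95% exact binomial interval 1.577% to 1.59%) and 1.62% (1.614% to 1.627%) of their counts on the members, between the mutant and the wild-type library and nearer the mutant one. They enter the pooled stage 7 mean that chose the members. With members chosen without them, the fitted median difference at stage 7 was 0.56 on the log2 scale, against 0.54 with them. That choice rests at stage 7 on the lone mutant and wild-type libraries alone, so it is no check on the difference. Of the 200 members, 130 met the rule in that setting.

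Counts were also compared between the genotypes in 1 model of all 18 resolved libraries, with the quasi-likelihood test of edgeR over 25483 genes and a Benjamini-Hochberg adjusted p under 0.05 as the threshold. All 200 members entered it. At stage 7, where the members' values depend on their choice, no member passed the threshold (0 of 200, against 0.00392% of genes tested), and the lowest edgeR adjusted p among the members was 0.43. The members' median log2 fold change was 0.54, with quartiles of 0.26 and 0.82 and a median standard error of 0.37, and the median over all genes tested was 0. An unadjusted p under 0.05 was reached by 65 members (32.5%), 64 of them higher in the mutant, against 7.39% of genes tested. DESeq2 is not read further here, since each genotype had 1 library at stage 7. When all 24 columns entered as labelled, which puts the shared libraries under both genotypes and shrinks the difference by construction, the median was 0.16 and 0 members had an unadjusted p under 0.05.

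The change between stages was then compared between the genotypes, in contrasts added after the data were seen. From stage 6 to 7 the members' median log2 change was 0.64 higher in the mutant than in wild type. The change was higher in the mutant for 177 of 200 (88.5%, against 50.2% of genes tested). From stage 7 to 8 the median was -0.55, with the change lower in the mutant for 165 members and higher for 17.5% (against 49.7%). No member passed in either contrast (0 of 200, against 0% of genes tested, with lowest edgeR adjusted p of 0.70 and 0.47). Unadjusted p under 0.05 was reached by 60 members (30%, against 6.39%) and by 59 (29.5%, against 6.46%). DESeq2 called 0 members in the first and 1 in the second (0.5%, against 0.111% of genes fitted). Both contrasts use the same 2 stage 7 libraries, which also entered the choice of members, so their values are a description. From stage 5 to 6 the median was -0.16, with 0 of 200 called (against 0% of genes tested) and 2 at an unadjusted p under 0.05 (1%, against 1.46%). For that change DESeq2 called 0 members, against 0% of genes fitted.

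**Figure D4:**
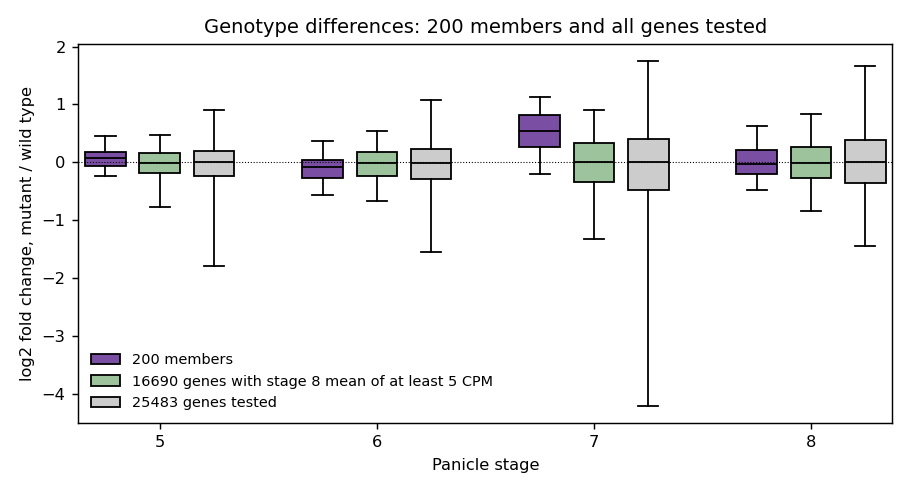
Fitted log2 fold change of mutant over wild type at each stage, for the 200 members, for 16690 genes with a stage 8 mean of at least 5 CPM and for all 25483 genes tested; boxes are quartiles with the median and whiskers the 5th and 95th percentiles. The members' median is 0.07, -0.09, 0.54 and -0.03 at stages 5 to 8, and the widest boxes belong to the full gene set, which holds scarce genes.

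At stage 5 the genotypes differed little. The members took 3.65% ± 0.110 of counts in the mutant and 3.52% ± 0.142 in wild type (SD, n = 3 each). The median log2 fold change was 0.07, with 130 members higher (65%, against 45.8% of genes tested) and 70 lower in the mutant. No member passed in edgeR (0 of 200, against 0% of genes tested) or in DESeq2 (against 0.0538% of genes fitted). In edgeR 9 members had an unadjusted p under 0.05 (4.5%, against 4.42%). In CPM, all 3 mutant libraries were above all 3 wild-type ones for 33 members (16.5%, against 9.56%) and below them for 6 (3%, against 7.27%). Wild-type replicate 2 stood low, being the highest of its group for 20 members (10%), against 34.6% of the 16690 genes.

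At stage 6, at meiosis, the mutant libraries had 2.57% ± 0.0613 of counts on the members and the wild-type libraries 2.66% ± 0.356 (SD, n = 2 each). The wild-type replicates lay on both sides of the mutant ones, with summed levels of 29060.9 and 24029.7 CPM in wild type and 26131.8 and 25264.6 CPM in the mutant. The median log2 fold change was -0.09, and without wild-type replicate 1 it was 0.01, so the sign depended on 1 library. No member passed in edgeR (0 of 200, against 0% of genes tested) or in DESeq2 (against 0.0202% of genes fitted). In edgeR 12 members had an unadjusted p under 0.05 (6%, against 2.96%). Both mutant libraries were above both wild-type ones for 32 members (16%, against 24.1%) and below them for 30 (15%, against 10.9%).

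At stage 8 the mutant had summed levels of 10971.1, 11569.7 and 11208.5 CPM on the members and wild type 11476.0, 10926.9 and 10414.3 CPM. The groups overlapped, and the median log2 fold change was -0.03. In the mutant 90 members were higher (45%, against 50.1% of genes tested) and 110 lower. No member passed in edgeR (0 of 200, against 0.00785% of genes tested), while DESeq2 called 2, 1 in each direction (1%, against 1.79% of genes fitted). An unadjusted p under 0.05 was reached by 28 members (14%, against 14% of genes tested). Without mutant replicate 3, edgeR called 12 members, 2 higher and 10 lower in the mutant (6%, against 7.93% of genes tested). In CPM, the 3 mutant libraries were above the 3 wild-type ones for 19 members (9.5%, against 10.4%) and below them for 7 (3.5%, against 5.78%).

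Averaged over the 4 stages, 158 members had a positive fitted difference (79%, against 48.3% of genes tested) and 42 a negative one. Their median was 0.12 on the log2 scale. No member passed in edgeR (0 of 200, against 0.0549% of genes tested, lowest edgeR adjusted p 0.13). An unadjusted p under 0.05 was reached by 35 members (17.5%, against 11.6%), 31 of them higher in the mutant. DESeq2 called 4, all higher in the mutant (2%, against 1.25% of genes fitted). Without mutant stage 8 replicate 3 edgeR called 6, 4 higher and 2 lower (3%, against 1.91% of genes tested), and without wild-type stage 5 replicate 1 it called 1 (0.5%, against 0.11%). The stage 7 libraries enter this mean with the same weight as the other stages, so the members' values for it are not independent of their choice either.

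The 2 members with the smallest p on the higher side of that contrast were OsIR64_11g0020240 and OsIR64_07g0026780. OsIR64_11g0020240 had 51.4, 48.8 and 41.8 CPM at stage 5, 42.1 and 34.8 CPM at stage 6, 29.1 CPM at stage 7 and 12.6, 11.2 and 20.2 CPM at stage 8 in the mutant. In wild type it had 47.9, 23.6 and 24.6 CPM at stage 5, 23.5 and 20.9 CPM at stage 6, 12.9 CPM at stage 7 and 8.32, 9.86 and 12.9 CPM at stage 8. The genotypes overlapped at stages 5 and 8 and were apart at stage 6, where the fitted log2 fold change was 0.71 (SE 0.33). The mean over stages was 0.71 (SE 0.17, edgeR adjusted p = 0.13). Its adjusted p ran from 0.023 to 0.32 over 21 alternative settings and passed in 3, with DESeq2, without mutant stage 8 replicate 3 and without wild-type stage 5 replicate 1.

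OsIR64_07g0026780 had 59.6, 70.7 and 63.0 CPM at stage 5, 47.0 and 42.1 CPM at stage 6, 37.1 CPM at stage 7 and 10.2, 18.3 and 19.1 CPM at stage 8 in the mutant. In wild type it had 75.3, 49.6 and 59.4 CPM at stage 5, 40.9 and 24.6 CPM at stage 6, 12.4 CPM at stage 7 and 12.2, 9.70 and 7.73 CPM at stage 8. Its genotype groups overlapped at stages 5 and 8, and its difference was widest at stage 7 (log2 fold change 1.57, SE 0.46, edgeR adjusted p = 0.45). The mean over stages was 0.65 (SE 0.17, edgeR adjusted p = 0.16), and the adjusted p ran from 0.032 to 0.37 over 21 settings, passing in DESeq2 alone.

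On the lower side the 2 members were OsIR64_03g0040430 and OsIR64_04g0024730. OsIR64_03g0040430 had 193.4, 215.5 and 236.4 CPM at stage 5, 124.3 and 123.9 CPM at stage 6, 96.2 CPM at stage 7 and 61.4, 57.8 and 103.8 CPM at stage 8 in the mutant. In wild type it had 219.6, 207.5 and 297.4 CPM at stage 5, 219.4 and 189.6 CPM at stage 6, 115.4 CPM at stage 7 and 80.2, 106.4 and 93.3 CPM at stage 8. At stage 6 the mutant libraries were below the wild-type ones without overlap, and 1 of 2 wild-type stage 6 libraries lay inside the range of the wild-type stage 5 ones. On the log2 scale the mean difference over stages was -0.42 (SE 0.13, edgeR adjusted p = 0.25). Over 21 settings the adjusted p was 0.030 to 0.43 and passed in 1, without mutant stage 8 replicate 3.

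OsIR64_04g0024730 was one of the scarcer members. It had 19.3, 16.8 and 14.3 CPM at stage 5, 13.9 and 10.0 CPM at stage 6, 5.78 CPM at stage 7 and 4.31, 5.58 and 11.3 CPM at stage 8 in the mutant. In wild type it had 18.8, 28.0 and 26.2 CPM at stage 5, 13.7 and 17.6 CPM at stage 6, 13.8 CPM at stage 7 and 8.39, 7.41 and 7.43 CPM at stage 8. The mutant stage 7 library lay inside the range of the mutant stage 8 libraries, and the wild-type one lay above every wild-type stage 8 library. Its mean log2 difference over stages was -0.63 (SE 0.20, edgeR adjusted p = 0.25), and mutant stage 8 replicate 3 was above every wild-type stage 8 library. Without that mutant library the gene passed (adjusted p = 0.030 in edgeR), and over 21 settings its adjusted p reached 0.45.

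**Figure D5:**
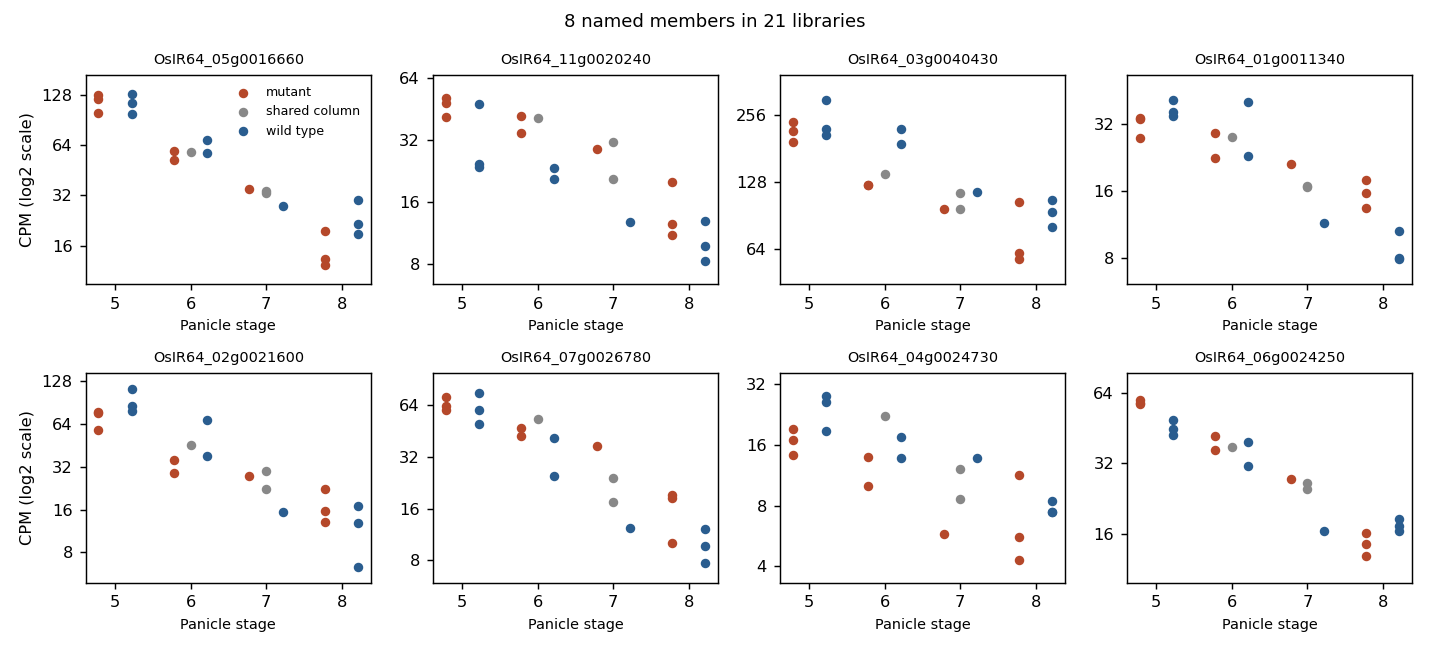
Level of 8 named members in each library (CPM, log2 axis) by panicle stage, with mutant at the left, shared columns in the middle and wild type at the right of each stage. The first column of panels has the 2 highest ratios of stage 5 to stage 8, the next columns the 2 members with the smallest p on the higher and on the lower side, and the last column the members whose change from stage 5 to stage 8 differed most by p.

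Whether the total decline from stage 5 to stage 8 differed between the genotypes was tested with an interaction contrast, which uses no stage 7 library. The members' median was -0.07 on the log2 scale, with 82 positive (41%, against 52.15% of genes tested) and 118 negative. No member passed in edgeR (0 of 200, against 0% of genes tested, lowest edgeR adjusted p 0.70). An unadjusted p under 0.05 was reached by 10 members (5%, against 6.74%), and DESeq2 called 0 (against 0.01345% of genes fitted). Without mutant stage 8 replicate 3 edgeR called 2, both negative (1%, against 0.964% of genes tested). This contrast spans the ends of the course only.

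The member with the smallest p on the positive side was OsIR64_01g0011340. It had 33.6, 27.7 and 33.9 CPM at stage 5 and 15.6, 17.9 and 13.5 CPM at stage 8 in the mutant, against 36.3, 34.6 and 41.1 CPM at stage 5 and 8.00, 10.5 and 7.89 CPM at stage 8 in wild type. Its decline was shallower in the mutant, with an interaction of 0.97 in log2 units (SE 0.34, edgeR adjusted p = 0.71), and the mutant libraries were below the wild-type ones at stage 5 and above them at stage 8 without overlap. On the negative side, OsIR64_06g0024250 had 59.8, 57.2 and 58.0 CPM at stage 5 and 12.9, 14.5 and 16.1 CPM at stage 8 in the mutant, against 48.8, 45.0 and 42.3 CPM at stage 5 and 16.5, 17.4 and 18.5 CPM at stage 8 in wild type. Its interaction was -0.71 (SE 0.23, edgeR adjusted p = 0.70), with the groups apart in the opposite order at the 2 stages. Neither passed the threshold there or in any of 24 alternative settings, where the adjusted p was at least 0.15 and 0.14.

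Replicate spread of the members was below that of the 16690 genes in each group compared, and widest in the mutant at stage 8. Their median coefficient of variation was 6.53% in the mutant and 13.0% in wild type at stage 5, 6.52% and 17.5% at stage 6, and 23.8% and 15.6% at stage 8. The same medians over the 16690 genes were 9.84% and 15.6%, 8.82% and 18.6%, and 25.9% and 16.5%. The biological coefficient of variation estimated by edgeR had a median of 19.5% over the members, 22.1% over the 16690 genes and 30.1% over all genes tested. Those genes too had their widest median spread in the mutant at stage 8.

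Abundant and scarce members took the same overall course, as the rule required, with small differences between the steps. The 67 members with the lowest stage 5 means (15.3 to 48.6 CPM) had median ratios of 1.41, 1.61 and 1.39 for the 3 transitions, and the 67 with the highest (183.7 to 1234.3 CPM) had 1.32, 1.76 and 1.32. At stage 7 the median ratio of the mutant to the wild-type library was 1.35 for the 67 scarcest, 1.40 for the 66 between and 1.62 for the 67 most abundant. From stage 7 to 8 the most abundant 67 had a median ratio of 1.58 in the mutant and 1.03 in wild type, and the scarcest 67 had 1.45 and 1.21. The 50 members with the highest ratio of stage 5 to stage 8 had a median stage 7 ratio of mutant to wild type of 1.42, and the 50 with the lowest had 1.504. The median was above 1 in each of these 5 subsets, which overlap.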

How the data were processed

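The authors deposited whole-number counts per gene in 24 columns. Per the series design text in the labels, STAR aligned the trimmed pairs to an IR64 reference, and HTSeq-count then assigned them to its high-confidence genes. Per the submitters' processing notes, Trimmomatic 0.39 and kallisto were also used, and the strand setting, build and handling of multimapping reads are nowhere stated, so counts of paralogs and overlapping genes are uncertain. TPM values were not used here.

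CPM is count over column total. Members and lists were chosen with earlier results of these data known. Genotype contrasts were fitted with edgeR 4.0.16 in R 4.3.3 (TMM, filterByExpr, robust quasi-likelihood F-test, 8 group means, 10 residual degrees of freedom), p-values adjusted over all genes. At stage 7, with 1 library a genotype, the spread was taken from the other groups. Standard errors came from the fold change and its F statistic. Alternatives were RLE factors, no filter, DESeq2 1.42.0, other library sets, a replicate block and leaving out each library. The procedure was tested on simulated data.

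Named members were fixed by rule as the 2 with the highest ratio of stage 5 to stage 8, the 2 smallest p each way for the averaged genotype difference and the smallest p each way for the interaction from stage 5 to 8. The design text calls replicates independent biological ones. Of 8 groups, none held 4 libraries.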

Additional observations from a re-analysis of the deposited data

How the results depend on the processing

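The number of genes meeting the membership rule was 297. It was 796 with a step minimum of 1.1, 81 with a minimum of 1.3 and 111 in wild-type libraries only, and ran from 222 to 372 when each library was left out, where 130 to 198 of the 200 members still met the rule. The lowest, 130, came without mutant stage 7 replicate 1, and 130 members also met it without the shared libraries. With TMM-scaled CPM 157 members met it.

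The count of called members, 0 in every comparison, moved in few settings. DESeq2 gave 2 at stage 8, 4 for the averaged difference and 1 for the change from stage 7 to 8. Leaving out each library gave 0 to 12 at stage 8, 0 to 6 averaged and 0 to 2 for the change from stage 5 to 8, the highest each time without mutant stage 8 replicate 3, where 7.93%, 1.91% and 0.964% of all genes tested were called, against 6%, 3% and 1% of members. The members' median moved with all 24 columns to 0.16 at stage 7, 0.22 for the change from stage 6 to 7 and -0.21 for that from 7 to 8, by construction of that fit. Leaving out each library gave -0.21 to 0.0104 at stage 6, -0.26 to -0.0254 for the change from stage 5 to 6 and 0.50 to 0.73 for that from 6 to 7. The cause of the other shifts was not tested. Members chosen without the shared libraries, an alternative added after seeing the data, gave a stage 7 median of 0.56. Their choice at stage 7 rests on the same 2 libraries that this median compares, so it is no check on it.

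With the replicate block, 0 members were called and the stage 7 median was 0.54. Same-numbered libraries correlated at 0.02 to 0.08 in their deviations across genes, so the numbers were not taken to pair them, and the block changed no call of a member. Stage 7 and averaged contrasts could not be fitted without a lone stage 7 library, and the stage 7 libraries alone left no residual degrees of freedom. The lowest count of a member in a library was 21.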

Other observations

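The 3 shared libraries stood in no genotype comparison. At stage 6 the shared library had a summed level of 28410.7 CPM on the members, inside the range of the wild-type libraries (24029.7 to 29060.9 CPM) and above both mutant libraries (26131.8 and 25264.6 CPM), and it was above every resolved stage 6 library for 53 members (26.5%, against 16.2% of 16690 genes) and below every one for 7 (3.5%, against 16.3%). This library entered the stage 6 mean that chose the members. At stage 7 shared replicate 2 lay closer to the mutant library than to the wild-type one for 136 of 200 members (68%, against 53.7% of 16690 genes) and shared replicate 3 for 157 (78.5%, against 56.2%). These values do not assign the libraries to a genotype.

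The mirrored set of 175 gradually rising genes had median ratios of later to earlier stage of 1.46, 1.33 and 1.49 for the 3 transitions in the mutant and 1.304, 1.88 and 1.21 in wild type. Their total rise had a median of 2.94-fold in the mutant and 2.99-fold in wild type. The ratios from stage 6 to 7 and from 7 to 8 use the same 2 stage 7 libraries as those of the members.

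The identifiers carry a 2-digit field whose meaning is not stated in the files. Members were found under all 12 numbered fields. Field 10 held 16 members (8%, against 4.94% of the 16690 genes) and field 09 held 5 (2.5%, against 5.29%). Among the 12 fields, these had the highest and the lowest share of members relative to those genes. Field 01 held 15.5% (against 14.2%) and field 02 held 11.5% (against 12.05%). Whether members are unevenly spread over the fields was not tested. Among the 16690 genes in file order, 4 pairs of members stood next to each other, and members made up 1.2% of those genes. Whether 4 pairs are more than an even scatter would give was not tested.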
